A study of Rattus norvegicus with 15 samples.

Results

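Transcripts of enzymes that handle ammonia, glutamine and aspartate were followed in rat liver, in 3 tissues: control liver, cirrhotic liver around tumours, and hepatocellular carcinoma. The set holds the urea cycle enzymes Cps1, Otc, Ass1, Asl and Arg1, the glutamine and glutamate enzymes Gls2, Glul and Glud1, and the aspartate aminotransferases Got1 and Got2. Probes were taken by their single gene symbol in the platform annotation, and 9 of the 10 genes were found, with 1 probe each, among 3400 named genes and 3757 probes in all. Asl was not among them and is not analysed here. Otc, Got1 and Gls2 were chosen by their measured ratios in these samples. Otc and Gls2 were among the 8 most different genes, in each direction, of those whose carcinoma and cirrhotic samples did not overlap, and Got1 was among the 8 furthest below control liver of those whose cirrhotic and control samples did not overlap. Those contrasts are therefore given for these 3 genes as a description. The other 6 genes were added for their place in the pathway.

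Control (normal) liver came from 5 samples of male Fischer344 rats (1 of them given as Fischer) kept for 70 weeks on a basal diet. The cirrhotic group held 5 samples of noncancerous liver surrounding carcinoma, and the carcinoma group 5 samples of the tumours, both from male Fischer344 rats after 70 weeks on a diet without choline and with defined L-amino acids. Total RNA was measured, 1 array per sample. Nothing in the labels states that the samples of a group came from separate animals, so a p-value below reflects only how far these samples spread, which may be technical. The diet was given with both cirrhotic liver and carcinoma, so diet and disease cannot be told apart in a comparison with control liver.

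Ammonia in the liver is bound by carbamoyl phosphate synthetase (Cps1) and ornithine transcarbamylase (Otc) in mitochondria, and the cycle is completed in the cytosol by Ass1, Asl and arginase (Arg1), which releases urea. Aspartate, made by the aminotransferases Got1 and Got2, brings in the other nitrogen atom. Liver glutaminase (Gls2) and the urea cycle lie mainly in hepatocytes near the portal vein, while glutamine synthetase (Glul) is confined to a rim of hepatocytes around the central vein and takes up ammonia that escapes them.

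Each deposited value was a ratio to the median of the same probe across the 15 arrays, and values below are log2 of these ratios after quantile normalization. Levels of different genes therefore cannot be ranked, and the presence or absence of a hepatocyte marker cannot be read from them. Precision was limited by the 15 arrays: over the 9 enzymes, the 95% interval of a difference reached 1.18 to either side at the median. Between 0 and 10 probes lay at the lower limit of 0.01 in 10 of the samples, against 33 in carcinoma 1, 65 in control 2, 76 in control 3, 209 in cirrhotic 1 and 229 in control 1. Ratios also shifted together along stretches of neighbouring probe numbers. For this reason differences are also given after subtraction, sample by sample, of the median of the 100 probes nearest in number (its neighbours), and 3 pairs or trios of members lie close together: Got1 and Gls2 (numbers 3704 and 3724), Otc, Got2 and Ass1 (1266, 1297 and 1374), and Cps1 and Glud1 (2956 and 2978).

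The mean differences of the 2 mitochondrial enzymes that start the urea cycle had opposite signs between carcinoma and cirrhotic liver. That of Otc is the contrast that chose the gene. The groups overlapped for Cps1, and its difference did not pass (limma adjusted p = 0.301). The 250 bases upstream of their transcription starts are shown as a description, as given for 1 start each by RefSeq on the assembly GRCr8. A link between these sequences and the differences was not tested.
Otc, chrX:15202474-15202723, minus strand: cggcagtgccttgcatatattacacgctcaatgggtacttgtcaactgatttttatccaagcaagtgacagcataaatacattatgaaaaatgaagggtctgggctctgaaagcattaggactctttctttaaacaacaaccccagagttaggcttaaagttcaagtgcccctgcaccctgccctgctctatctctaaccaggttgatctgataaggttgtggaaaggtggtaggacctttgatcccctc
Cps1, chr9:76063613-76063862, plus strand: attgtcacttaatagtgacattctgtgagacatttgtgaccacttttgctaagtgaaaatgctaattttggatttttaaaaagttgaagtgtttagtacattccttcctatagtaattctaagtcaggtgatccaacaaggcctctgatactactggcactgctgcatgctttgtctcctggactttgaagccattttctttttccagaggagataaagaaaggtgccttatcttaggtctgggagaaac
Matches to a searched motif would stand in capitals, and neither window held one. Both strands were searched for each motif. A TATA box, spelled TATAAA, is held by 12.9% of the 33469 upstream windows of this length in the RefSeq table. The motif of the C/EBP factors, spelled TTGCNNAA, is held by 9.22%, and the cAMP response element, spelled TGACGTCA, by 1.59%. The core of nuclear receptor sites, spelled AGGTCA, is held by 14.1%.

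No member passed an adjusted p of 0.05 in limma in any of the 3 comparisons, and 0% of the 3757 probes did. At an unadjusted p under 0.05, 3 of the 9 members were found between carcinoma and cirrhotic liver, against 13.2% of all probes, 3 of 9 between cirrhotic and control liver, against 9.64%, and 2 of 9 between carcinoma and control liver, against 7.4%. Most of these are the genes chosen for their values, so nothing is read from the shares. The samples of both groups did not overlap for 2 members between carcinoma and cirrhotic liver (Otc and Gls2), beside 2.71% of all probes, for 1 between cirrhotic and control liver (Got1), beside 1.65%, and for 0 between carcinoma and control liver, beside 1.89%, and these contrasts are the ones that chose the 3 genes. Of the 6 members added for their pathway, 1 was found between carcinoma and cirrhotic liver, 0 between cirrhotic and control liver and 1 between carcinoma and control liver, and it was Cps1 both times. The median difference over the 9 members was 0.35, -0.01 and 0.00 in the same order of comparisons, beside -0.02, 0.02 and 0.00 over all probes.

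Otc had its highest values in cirrhotic liver. Its normalized log2 ratios there were 3.0, 3.27, 1.13, 1.24 and 1.98 in samples 1 to 5. In carcinoma they were -3.15, -0.90, -0.41, 0.05 and -0.15, and in control liver -2.39, -0.84, 0.85, 0.00 and 1.62. All cirrhotic samples lay above all carcinoma samples, while control 5 lay within the cirrhotic range and the other controls below it. The means were 2.13 ± 0.98 in cirrhotic liver, -0.15 ± 1.55 in control liver and -0.91 ± 1.30 in carcinoma (SD, n = 5 each). The level in carcinoma was 8.21-fold lower than in cirrhotic liver (difference -3.04, 95% interval -4.58 to -1.49), as the choice of the gene implies. In tissue samples, fewer hepatocytes and less RNA per hepatocyte cannot be told apart.

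Otc in cirrhotic liver was 2.28 above control liver (0.73 to 3.82, limma adjusted p = 0.355), and in carcinoma it differed from control liver by -0.76 (-2.31 to 0.79, adjusted p = 0.829). Neither passed, and each shares a group of samples with the contrast that chose the gene. Control 1 stood at the lower limit of the deposited ratios, so its level is a bound. Its deposited ratio of 0.01 was under the 0.0478 of carcinoma 1, an order that quantile normalization turned around. On the values as deposited the difference between cirrhotic and control liver was 3.08 and that between carcinoma and control liver -0.02. Without control 1 these differences were 1.72 and -1.32, and without carcinoma 1 the latter was -0.20.

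The neighbours of Otc were also higher in cirrhotic liver than in carcinoma, by 0.78. With the neighbour median subtracted, Otc still had its highest mean in cirrhotic liver, at 1.72 ± 1.57, against -0.15 ± 1.64 in control liver and -0.53 ± 1.60 in carcinoma (SD, n = 5 each). The difference between carcinoma and cirrhotic liver was then -2.26 (-4.05 to -0.47) and the groups overlapped, with cirrhotic 3 and 4 at 0.31 and 0.50 and carcinoma 3 and 4 at 0.53 and 0.97. Cirrhotic 1 and 2 were still the highest samples, at 3.96 and 2.72, and control 1 and carcinoma 1 the lowest, at -2.83 and -3.15.

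Cps1 was highest in carcinoma. Its normalized log2 ratios were 1.04, -0.16, 1.52, 0.84 and 1.87 in carcinoma, 0.36, -1.23, 0.89, -0.10 and -1.24 in cirrhotic liver, and -0.03, -0.35, 0.20, -0.32 and -0.78 in control liver. Of the 5 carcinomas, carcinoma 2 lay within the control range and the other 4 above it. The carcinoma mean of 1.02 ± 0.78 was 1.28 above the control mean of -0.26 ± 0.37 (0.20 to 2.35, adjusted p = 0.587) and 1.29 above the cirrhotic mean of -0.26 ± 0.95 (0.21 to 2.36, adjusted p = 0.301; SD, n = 5 each). Cirrhotic and control liver differed by -0.01 (-1.09 to 1.07). With the neighbour median subtracted the 2 carcinoma differences were 1.04 and 0.95, and both intervals then included 0. The lowest and highest values on leaving out 1 sample were 1.07 and 1.57 against control liver and 1.04 and 1.58 against cirrhotic liver.

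**Figure D1:**
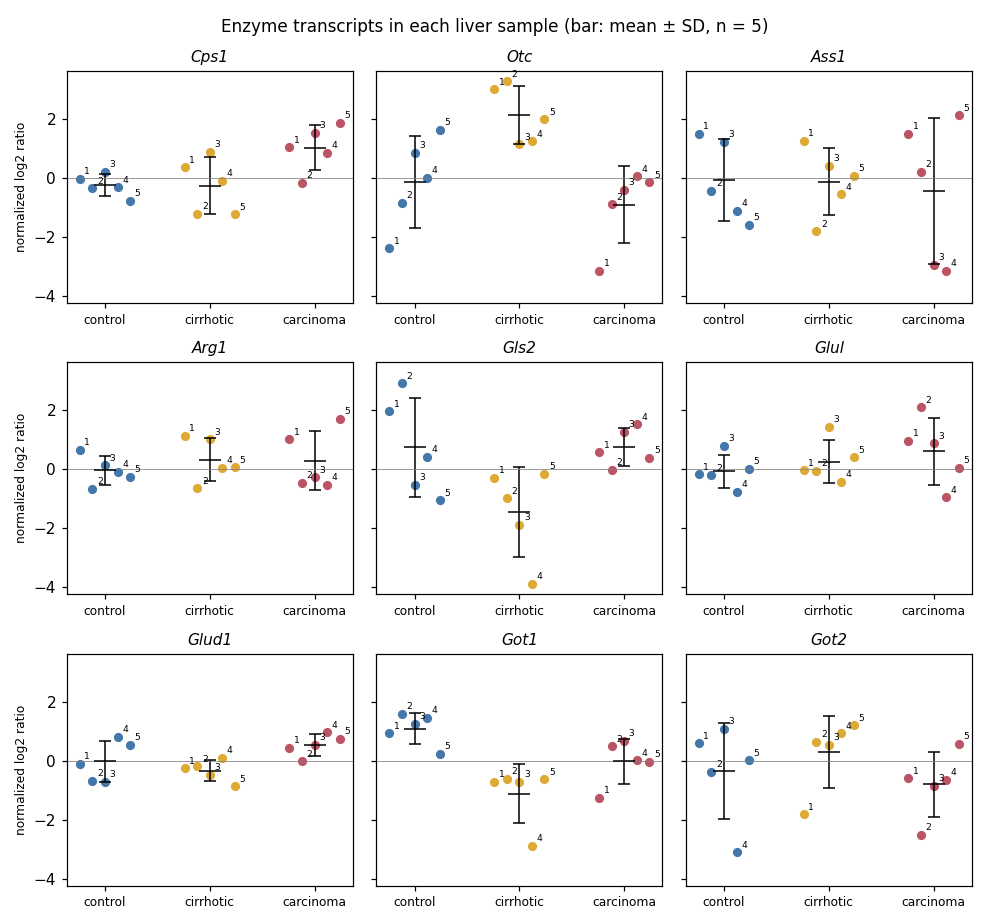
Normalized log2 ratio (vertical axis) of the 9 enzymes in each of the 15 samples, by tissue, with the replicate number beside each point and bars for mean ± SD (n = 5). Otc is highest in cirrhotic liver, Got1 is lowest there, and Ass1 spreads from -3.15 to 2.12 among the carcinomas.

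Ass1, which joins citrulline to aspartate, and Arg1 showed no shift between the tissues beyond the spread of the samples. The normalized log2 ratios of Ass1 in carcinoma were 1.5, 0.20, -2.95, -3.15 and 2.12, so tumours 3 and 4 lay below every other sample and tumour 5 above every other. Their SD was 2.47, against 1.15 in cirrhotic and 1.39 in control liver. The difference between carcinoma and control liver was -0.37 (-2.25 to 1.52, adjusted p = 0.943), that between carcinoma and cirrhotic liver -0.32 (adjusted p = 0.895) and that between cirrhotic and control liver -0.04 (adjusted p = 0.992). The neighbours of Ass1 stood at -1.08 and -0.95 in carcinoma 3 and 4, and with them subtracted these tumours were at -1.87 and -2.19 and the carcinoma SD was 1.75. The direction of the difference between carcinoma and cirrhotic liver then turned, to 0.46.

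Arg1 ranged from -0.66 to 0.67 in control liver, from -0.64 to 1.13 in cirrhotic liver and from -0.53 to 1.71 in carcinoma. The highest carcinomas were 5 and 1, at 1.71 and 1.01, the same tumours that were highest for Ass1. The differences were 0.33 between carcinoma and control liver (-0.78 to 1.44, adjusted p = 0.899), 0.36 between cirrhotic and control liver (adjusted p = 0.828) and -0.03 between carcinoma and cirrhotic liver (adjusted p = 0.986). They were 0.22, -0.07 and 0.29 with the neighbours subtracted. The intervals before subtraction allow differences of more than 1 on the log2 scale, so equal levels were not shown.

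Gls2, the glutaminase of hepatocytes that releases ammonia from glutamine, was lowest in cirrhotic liver. Its normalized log2 ratios there were -0.29, -0.98, -1.89, -3.88 and -0.16. They were 0.57, -0.02, 1.28, 1.53 and 0.38 in carcinoma, and 1.96, 2.91, -0.53, 0.43 and -1.05 in control liver. The carcinomas lay above all cirrhotic samples, with carcinoma 2 at -0.02 and cirrhotic 5 at -0.16 the closest pair, and the control samples spread across both groups. Carcinoma, at 0.75 ± 0.64, was 4.55-fold above cirrhotic liver, at -1.44 ± 1.53 (SD, n = 5 each; difference 2.19, 0.69 to 3.69), the contrast that chose the gene. The gene just outside that choice, Slc26a2, differed by 2.15, and the last inside, Lgals3, by 2.16. On the lower side, where Otc stood, they were Epha8 at -2.04 and Psmb8 at -2.23.

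Cirrhotic liver differed from control liver in Gls2 by -2.18 (-3.68 to -0.68, adjusted p = 0.355), and carcinoma from control liver by 0.00 (-1.5 to 1.5, adjusted p = 0.999). Neither passed, and each shares a group of samples with the contrast that chose Gls2. The control group was wide, at 0.74 ± 1.67 (SD, n = 5), from -1.05 in control 5 to 2.91 in control 2. Without control 2 the difference between cirrhotic and control liver was -1.64, without cirrhotic 4 it was -1.57, and without control 5 it was -2.63. The neighbours of Gls2 differed in the same direction, by -1.22 between cirrhotic and control liver and by 0.66 between carcinoma and cirrhotic liver. With them subtracted the differences were -0.96 (-2.29 to 0.38) and 1.53 (0.20 to 2.87), and carcinoma and cirrhotic samples overlapped, cirrhotic 1 and 5 both standing at 0.33 and carcinoma 2 at 0.00.

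Glul, which makes glutamine from glutamate and ammonia, and Glud1, the mitochondrial enzyme that interconverts glutamate and 2-oxoglutarate with ammonia, both had their highest mean in carcinoma. Glul was 0.61 ± 1.13 in carcinoma, 0.26 ± 0.72 in cirrhotic liver and -0.06 ± 0.56 in control liver (SD, n = 5 each). Its carcinomas ranged from -0.95 in sample 4 to 2.10 in sample 2. The difference from control liver was 0.67 (-0.51 to 1.86, adjusted p = 0.798; 0.30 without carcinoma 2), that from cirrhotic liver 0.35 (-0.83 to 1.53), and none of its 3 differences passed. After subtraction of the neighbours carcinoma stood 0.80 above control liver (-0.23 to 1.83) and 0.89 above cirrhotic liver (-0.13 to 1.92), and cirrhotic liver differed from control liver by -0.09. Glud1 varied little, with an SD of 0.37 in carcinoma, 0.36 in cirrhotic and 0.69 in control liver. It was 0.53 in carcinoma and -0.33 in cirrhotic liver, a difference of 0.87 (-0.06 to 1.80, adjusted p = 0.405), and -0.02 in control liver. With the neighbours subtracted that difference was 0.43, and carcinoma differed from control liver by 0.42.

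Got1, the cytosolic aspartate aminotransferase, was highest in control liver. Its normalized log2 ratios were 0.93, 1.59, 1.25, 1.45 and 0.24 in control liver, -0.72, -0.61, -0.71, -2.88 and -0.63 in cirrhotic liver, and -1.25, 0.49, 0.68, 0.01 and -0.03 in carcinoma. Every control sample lay above every cirrhotic sample, and the carcinomas overlapped both groups, with carcinoma 1 inside the cirrhotic range and carcinomas 2 and 3 inside the control range. Cirrhotic liver, at -1.11 ± 0.99, was 4.6-fold below control liver, at 1.09 ± 0.54 (SD, n = 5 each; difference -2.20, -3.29 to -1.11), the contrast that chose the gene. The last gene inside that choice, Arid4b, differed by -1.96 and the first outside it, Fkbp1a, by -1.95. Carcinoma, at -0.02 ± 0.75, differed from control liver by -1.12 (-2.21 to -0.03, adjusted p = 0.656) and from cirrhotic liver by 1.09 (adjusted p = 0.379). Neither passed, and each shares a group of samples with the contrast that chose Got1.

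About as much of the Got1 difference between cirrhotic and control liver was shared with its neighbours, which differed by -1.15, as was not. With them subtracted Got1 differed by -1.05 (-1.91 to -0.19), and its groups did not overlap, with controls from 0.18 to 1.04 and cirrhotic samples from -1.30 to 0.06. Got1 was chosen because these groups did not overlap before subtraction, so their staying apart is given as a description. After this subtraction 0.452% of all probes had groups that did not overlap in either direction, against 1.65% before it. In the other comparisons no member's groups stayed apart after it, beside 1.25% of all probes between carcinoma and cirrhotic liver and 1.97% between carcinoma and control liver. The carcinoma difference from control liver was then -0.55 and that from cirrhotic liver 0.50. Cirrhotic 4 was the lowest sample for Got1 and for Gls2, and its neighbours there were at -1.58 and -1.69. Without it Got1 differed by -1.76 between cirrhotic and control liver.

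**Figure D2:**
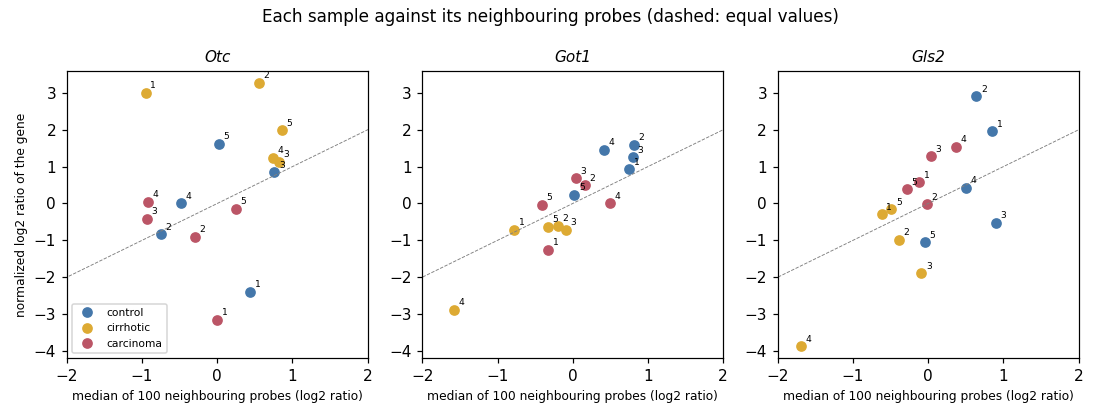
Normalized log2 ratio of Otc, Got1 and Gls2 (vertical axis) against the median of the 100 probes nearest in number (horizontal axis), 1 point per sample and coloured by tissue, with the line of equal values dashed. Cirrhotic 4 is low on both axes for Got1 and Gls2, while for Otc cirrhotic 1 is at 3.0 over neighbours at -0.95.

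Got2, the mitochondrial counterpart of Got1, did not share its pattern. It ranged from -3.10 to 1.08 in control liver, from -1.81 to 1.20 in cirrhotic liver and from -2.51 to 0.58 in carcinoma. Carcinoma differed from cirrhotic liver by -1.10 (-2.68 to 0.47, adjusted p = 0.517) and from control liver by -0.44 (adjusted p = 0.909), and cirrhotic from control liver by 0.66 (adjusted p = 0.767). The last difference was -0.11 on the values as deposited and -0.03 without control 4, and with the neighbours subtracted the 3 differences were -0.25, -0.13 and 0.12.

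**Figure D3:**
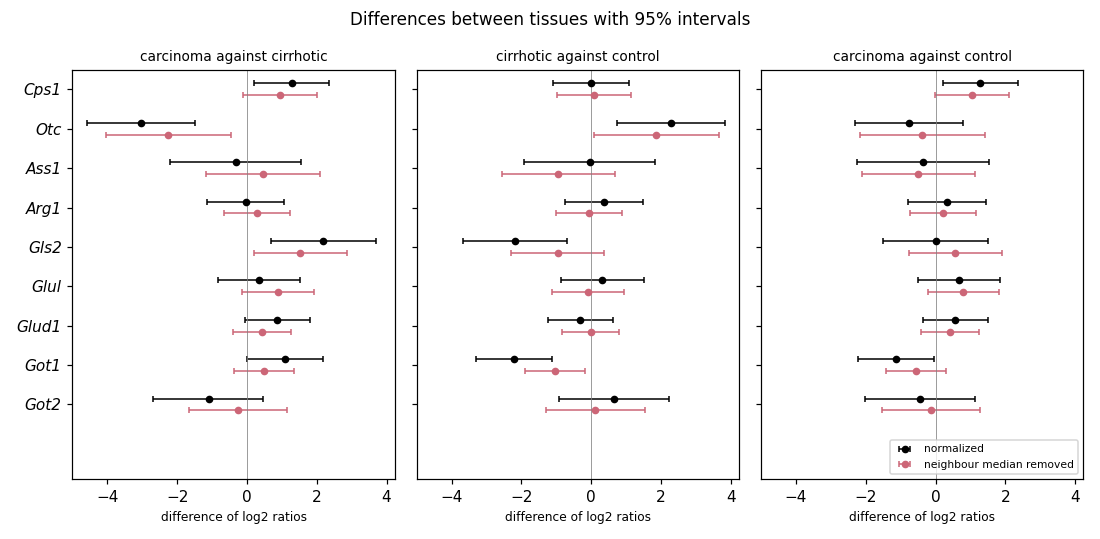
Differences of mean log2 ratio between tissues (horizontal axis) for the 9 enzymes, with 95% intervals, from the normalized values (black) and after subtraction of the neighbour median (red). The difference of Got1 between cirrhotic and control liver goes from -2.20 to -1.05, and that of Otc between carcinoma and cirrhotic liver from -3.04 to -2.26.

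The genes most like Otc over the 15 samples, among 3399 genes, were Tmsb15b2, Scn9a and Stx3, with a Pearson correlation of 0.85, 0.83 and 0.82. With the neighbours subtracted from every gene they were Scn9a and the glutamate transporter Slc1a1, both at 0.81, and Tmsb15b2 at 0.78. The pattern of Got1 was most like those of Ccs (0.92), Stmn1 (0.90) and Ppp1r1a (0.89), of which Stmn1 and Ppp1r1a lie 7 and 25 probe numbers away. After subtraction they were Mark1 (0.85), Lxn (0.82) and Ccl11 (0.78). That of Gls2 was most like Cacnb4 (0.86), Tfpi (0.85) and Ppp1r1a (0.84), with Cacnb4 and Ppp1r1a 26 and 5 numbers away, and after subtraction Grb2 (0.86), Cpe (0.79) and Tfpi (0.75). The samples share 3 tissues and their stretch shifts, so these correlations describe the likeness and carry no test.

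Other genes around the urea cycle numbered 7 of 12 listed. Of these 0 passed in any comparison, and the unadjusted p was under 0.05 for 2 lower genes of the 7 between carcinoma and cirrhotic liver, beside 13.2% of all probes in either direction, and for 1 higher gene between cirrhotic and control liver, beside 9.64%. Their median difference was -0.47 between carcinoma and cirrhotic liver, 0.70 between cirrhotic and control liver and 0.23 between carcinoma and control liver, and -0.11, 0.27 and 0.18 with the neighbours subtracted. Aqp9, a channel for glycerol and urea, was lowest in carcinoma, by -1.60 against cirrhotic liver (-2.78 to -0.42, adjusted p = 0.260) and -1.15 against control liver. Hal, which releases ammonia from histidine, differed by -1.40 between carcinoma and cirrhotic liver and by 1.99 between cirrhotic and control liver (0.74 to 3.25, adjusted p = 0.307). Like Otc it was highest in cirrhotic liver, but its carcinoma mean of 0.09 lay above its control mean of -0.50. Its probe number (1388) lies nearer to that of Ass1 (1374) than to that of Otc (1266). Ass1 differed by -0.04 between cirrhotic and control liver. With the neighbours subtracted the 2 differences of Hal were -0.55 and 1.04. Car5a, the mitochondrial carbonic anhydrase that supplies bicarbonate to Cps1, and the urea transporter Slc14a1 were the highest between carcinoma and cirrhotic liver, at 0.33 and 0.28. Arg2, the arginase of mitochondria, and Car5a were the highest against control liver in carcinoma, at 0.62 and 1.03, and Aqp8 stood at 0.05. Between cirrhotic and control liver Aqp8 differed by 0.91, Aqp9 by 0.45 and Slc14a1 by -0.07.

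Among 13 measured of 27 other genes of glutamine and glutamate, 0 passed. Between carcinoma and cirrhotic liver 9 of them were below 0 (49.3% of all probes were above it) and 2 of 13 had an unadjusted p under 0.05, near the 13.2% of all probes: Gad2, a glutamate decarboxylase, at -2.03 (-3.24 to -0.83, adjusted p = 0.224), and the glutamate transporter Slc1a1 at -1.26. The glutamine transporters Slc1a5 and Slc38a2 were the highest, at 0.56 and 0.52. Between cirrhotic and control liver 10 of 13 were above 0, beside 50.7% of all probes, with Gad2 at 1.51 and Slc1a3 at 1.37, while Slc38a2 and Slc1a5 were the lowest at -1.20 and -1.04 (-0.32 and -0.25 with the neighbours subtracted). Between carcinoma and control liver Slc3a2 stood at 0.89, Slc1a3 at 0.50, Slc38a1 at -0.94 and Slc38a2 at -0.69. The list medians were -0.21, 0.53 and 0.10, and with the neighbours subtracted -0.03, 0.11 and 0.07.

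Of the other genes of aspartate supply and of the shuttle that carries its carbon across the mitochondrial membrane, 8 of 18 were measured and 0 passed. Mdh1, the cytosolic malate dehydrogenase that works with Got1 in this shuttle, was higher in carcinoma than in control liver by 1.39 (0.48 to 2.30, adjusted p = 0.489) and than in cirrhotic liver by 0.92 (0.01 to 1.83), and its carcinoma samples overlapped neither group (beside 1.89% and 2.71% of all probes). With the neighbours subtracted the differences were 1.19 and 0.64, and the carcinomas overlapped both groups. Pc, pyruvate carboxylase, was the highest of the list between carcinoma and cirrhotic liver at 1.62, followed by Slc25a10 at 0.94, and it stood at 1.0 against control liver. Asns, asparagine synthetase, differed by -1.08 and Aspa by -0.71. Between cirrhotic and control liver Me1 and Asns were the highest at 1.35 and 1.01, and the mitochondrial malate dehydrogenase Mdh2 (-0.95) and Slc25a10 (-1.23) the lowest. With the neighbours subtracted these were 0.58, 0.35, -0.61 and -0.43. Between carcinoma and control liver Mdh2 stood at -0.51 and Slc25a10 at -0.30. The list medians were 0.60, -0.08 and -0.08.

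Transcription factors and receptors that regulate urea cycle genes in liver were measured for 13 of 17, and 0 passed. Hnf4a, a nuclear receptor that activates Otc, and Cebpa, a factor needed for several urea cycle genes in mouse liver, were the highest between carcinoma and cirrhotic liver, at 1.54 (0.53 to 2.55, adjusted p = 0.234) and 1.87 (0.19 to 3.55, adjusted p = 0.332). Both were the lowest of the list between cirrhotic and control liver, at -1.06 and -1.28. This was the opposite order of tissues to Otc. With the neighbours subtracted they stood at 0.99 and 1.29, and at -0.35 and -0.47. Cebpb differed by -1.07 between carcinoma and cirrhotic liver and by 1.98 between cirrhotic and control liver, and Creb1 by -1.08 in the first of these and Cebpd by 1.78 in the second. With the neighbours subtracted these were -0.23 and 1.03 for Cebpb, -0.68 for Creb1 and 0.97 for Cebpd. Against control liver carcinoma differed by 0.90 in both Cebpb and Cebpd, by -1.06 in Foxa1 and by -1.13 in Foxa2.

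Markers of hepatocytes near the portal vein, where urea cycle enzymes are most abundant, were measured for 7 of 10. All 7 were lower in carcinoma than in cirrhotic liver, where 49.3% of all probes were above 0, with a median of -1.12, and -1.16 with the neighbours subtracted. None passed, and 3 of 7 had an unadjusted p under 0.05, beside 13.2% of all probes: Apoa4 (an intestinal and liver apolipoprotein) at -2.24, Cdh1 (E-cadherin) at -1.98 and Hal at -1.40. With the neighbours subtracted these 3 stood at -1.87, -2.04 and -0.55. Sds (serine dehydratase) stood at -1.12, Cyp2f4 at -0.65, G6pc1 (glucose 6-phosphatase) at -0.55 and Igf1 at -0.45. The mean level of the 7 genes ran from -1.26 to -0.33 in carcinoma, from -0.05 to 0.87 in cirrhotic liver and from -0.29 to 0.40 in control liver. Among the members of this zone, Otc (-3.04) and Ass1 (-0.32) had a difference below 0 between carcinoma and cirrhotic liver, and Arg1 stood at -0.03. Cps1 (1.29) and Gls2 (2.19) had one above 0. This contrast is the one that chose Otc and Gls2. With the neighbours subtracted Otc stood at -2.26, Ass1 at 0.46, Arg1 at 0.29, Cps1 at 0.95 and Gls2 at 1.53. Markers of hepatocytes near the central vein, 8 of 13 measured, had a median of -0.74 between carcinoma and cirrhotic liver, 7 of them below 0, and -0.42 with the neighbours subtracted. Glul of that zone stood at 0.35, and at 0.89 with the neighbours subtracted.

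General hepatocyte markers, 11 of 16 measured, had a median of 0.56 between carcinoma and cirrhotic liver, 0.73 between cirrhotic and control liver and 0.49 between carcinoma and control liver. Their mean level per sample ran from -1.31 to 0.37 in control liver, from -1.64 to 1.74 in cirrhotic liver and from -0.57 to 1.40 in carcinoma. The mean level of stellate cell and myofibroblast markers (11 of 14) ran from -0.45 to -0.19 in cirrhotic liver, wholly below the -0.05 to 0.23 of control liver, and from -0.23 to 0.73 in carcinoma. These means were taken without subtraction of the neighbours, and no share without overlap was worked out for means over 11 genes. The list median between cirrhotic and control liver was -0.10, and -0.25 with the neighbours subtracted. Of these 11 genes 0 passed between cirrhotic and control liver. An unadjusted p under 0.05 was found for 3, all lower in cirrhotic liver, beside 9.64% of all probes: the collagens Col1a1 (-1.11) and Col3a1 (-1.34) and vimentin, Vim (-1.37). They stood at -0.25, -0.92 and -0.83 with the neighbours subtracted. The mean level of these markers was thus not higher with the label cirrhotic, although 4 of the 11 genes were above 0, beside 50.7% of all probes.

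Macrophage markers (5 of 11) ran from -1.42 to 0.34 in control liver, from -0.89 to -0.16 in cirrhotic liver and from 0.15 to 0.63 in carcinoma, where they lay above every cirrhotic sample. Endothelial markers (5 of 10) ran from -0.40 to 0.52, from -0.14 to 0.32 and from -0.89 to 0.10 in the same order of tissues. Lymphocyte markers (6 of 12) ran from -0.75 to 0.25, from -0.38 to 0.94 and from -0.98 to 0.24. Bile duct markers (5 of 10) ran from -0.47 to 0.62, from -0.32 to 0.70 and from -0.79 to 0.59. Of the 5 macrophage genes 0 had an unadjusted p under 0.05 between carcinoma and cirrhotic liver. Their median difference was 0.62, and 0.51 with the neighbours subtracted. For single probes the groups did not overlap in 2.71% there, and no such share was worked out for means over 5 genes. The part of these cell types in the values of the 9 enzymes was not tested.

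**Figure D4:**
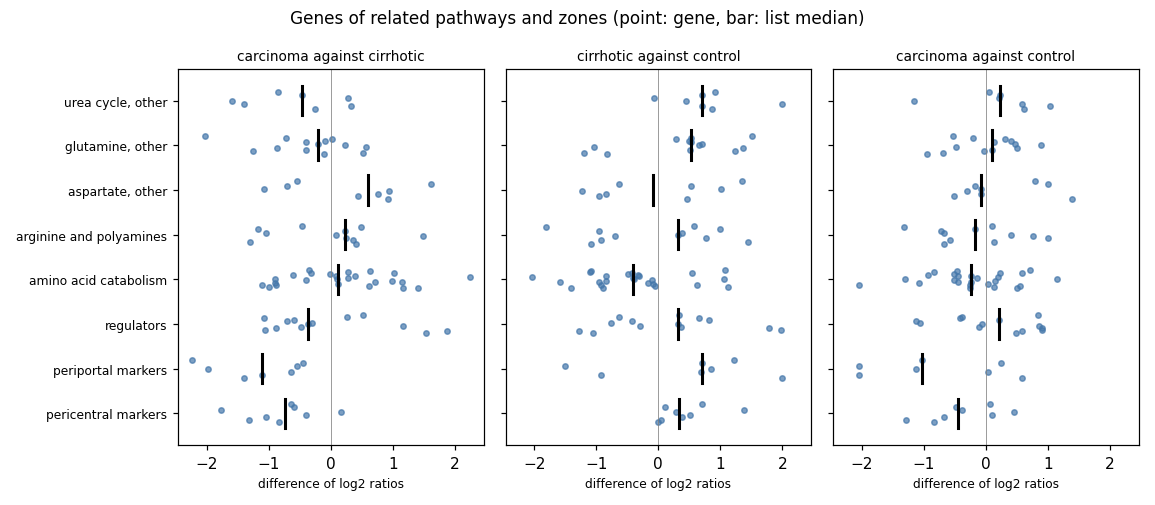
Difference of mean log2 ratio between tissues (horizontal axis) for each measured gene (points) of 6 pathway lists and 2 zone lists, with the list median as a bar. All 7 periportal markers lie below 0 between carcinoma and cirrhotic liver, and the other lists lie on both sides.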

How the data were processed

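The deposited values are a linear ratio to each probe's own median over 15 arrays: in all 3757 probes that median was 1. The steps the authors took to reach it, and the dyes, scanner and software of the arrays, do not appear in the labels or headers read here. Of the probes, 3440 had 1 gene symbol, 4 several and 313 none listed, in the platform annotation. All 9 member probes matched a RefSeq gene by ID. Every column was used (0 left aside).

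Ratios were quantile-normalized and put on the log2 scale, and 1 model with group as the only term was fitted to all 15 samples by limma 3.58.1 (lmFit, then eBayes with trend; R 4.3.3). P-values are two-sided and adjusted by Benjamini-Hochberg over the 3757 probes of a comparison, threshold 0.05. The fit and the running median were tested on simulated data. Where a listed gene had several probes, the one with the smallest residual SD was used. Sequences are from RefSeq, GRCr8.

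Named genes were all members, the 2 highest and 2 lowest of each pathway list per comparison, and the 3 most correlated genes of Otc, Got1 and Gls2. Marker genes, Ivd, and Slc26a2, Lgals3, Epha8, Psmb8, Arid4b and Fkbp1a at the edges of the choice, were named after their values were seen. The members and lists were chosen with earlier results of these data known.

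The replicate numbers showed no clear pairing of the samples: same-numbered samples correlated at -0.34 to 0.387 in their deviations from group means. Such correlations cannot tell whether cirrhotic and carcinoma samples came from the same animals, and the model treats all samples as independent. Alternatives were the values as deposited, array medians scaled, a pseudocount of 0.1, probes at the lower limit left out, the running median over 100 neighbours removed, no trend, only the groups compared, array weights, a replicate block, and samples left out.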

Additional observations from a re-analysis of the deposited data

Results flagged for a closer look

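Dixon's test was applied to 27 groups of 5 samples (9 enzymes in 3 tissues), where chance flags about 1 in 20 groups, and 2 values stood apart. Got1 in cirrhotic 4 had a normalized log2 ratio of -2.88, with the nearest cirrhotic sample at -0.72 (deposited ratio 0.197). Got2 in cirrhotic 1 had -1.81, with the nearest at 0.55 (deposited ratio 0.0612). Without these samples the difference between cirrhotic and control liver was -1.76 for Got1 and 1.19 for Got2.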

How the results depend on the processing

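The 9 members in 3 comparisons gave 27 differences. Under 10 settings that did not leave out a single sample they took 267 values, of which 24 had the other sign and 0 had an adjusted p under 0.05 (limma). The smallest over all settings, 0.0853 with array weights, was that of Otc between carcinoma and cirrhotic liver. That contrast chose the gene, so nothing is read from this value. Fits without trend, with only the groups compared, with the replicate block or without probes at the limit can change a p-value but not a difference. Their values repeat the main ones, so the share of turned signs understates the dependence on processing. Otc could not be fitted where probes with a value at the lower limit were left out. The count of probes past the threshold was 0 in each comparison, also with the replicate block, and was 2 between carcinoma and cirrhotic liver without cirrhotic 5. The numbers gave no clear pairing (6 of 15 same-numbered pairs correlated over 0.1, and 3 correlated best with their own number). Each number occurs once in each tissue, so the block cannot change a difference and its unchanged differences say nothing about pairing. No call of a member changed with it.

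The differences that turned sign or moved had intervals that included 0, except that of Got1. Cps1 between cirrhotic and control liver (-0.01) was 0.03 as deposited and with array medians scaled, 0.01 with the pseudocount and 0.09 with the running median removed. Ass1 between carcinoma and cirrhotic liver (-0.32) was 0.01 with medians scaled, 0.46 with the running median removed and 0.02 without control 1 and cirrhotic 1 together. Ass1 between cirrhotic and control liver (-0.04) was 0.09 as deposited and with medians scaled and 0.01 without that pair, and between carcinoma and control liver (-0.37) 0.08, 0.10 and 0.03. Arg1 between carcinoma and cirrhotic liver (-0.03) was 0.10 as deposited, 0.12 with medians scaled, 0.29 with the running median removed, 0.20 with array weights and 0.17 without that pair. With the running median removed Arg1 and Glul between cirrhotic and control liver were -0.07 and -0.09, and Got1 there was -1.05. Gls2 between carcinoma and control liver (0.00) was -0.03 with the pseudocount and -0.10 with array weights. Got2 between cirrhotic and control liver (0.66) was -0.11 as deposited and with medians scaled and 1.42 without control 1 and cirrhotic 1. The cause was not tested.

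Leaving out 1 sample at a time gave 405 values, 27 with the other sign and 0 with an adjusted p under 0.05. A sample of the tissue outside a comparison cannot change its difference, so those values repeat the main one and the share of turned signs understates the dependence on samples. Between carcinoma and cirrhotic liver the lowest and highest were -0.97 and 0.35 for Ass1, -0.39 and 0.17 for Arg1 and -0.02 and 0.74 for Glul. Between cirrhotic and control liver they were -0.30 and 0.24 for Cps1, -0.42 and 0.38 for Ass1 and -0.03 and 1.19 for Got2. Between carcinoma and control liver they were -1.01 and 0.31 for Ass1, -0.03 and 0.53 for Arg1 and -0.44 and 0.55 for Gls2.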

Other observations

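Other amino acid enzymes lay near Got1 and Gls2 in probe number. Bckdha, a subunit of the enzyme that breaks down branched-chain amino acids (number 3684), was lower in cirrhotic than in control liver by 2.04 (adjusted p = 0.355) and higher in carcinoma than in cirrhotic liver by 2.24 (adjusted p = 0.224). With the neighbours subtracted these were -0.98 and 1.72. Gamt, which makes creatine (number 3695), differed by -1.81 between cirrhotic and control liver, and by -0.66 after subtraction. Sds (number 3699) differed by -0.92 between cirrhotic and control liver (0.22 after subtraction) and by -2.04 between carcinoma and control liver (-1.54 after subtraction). Ivd (number 3714) differed by -0.49 between cirrhotic and control liver, and by 0.71 after subtraction. Over probe numbers 3600 to 3799 the median difference between cirrhotic and control liver was -1.07. Over 25 measured of 38 listed genes of amino acid breakdown 20 were below 0 between cirrhotic and control liver (50.7% of all probes were above it). Their median was -0.41, and -0.06 after subtraction. Beside those named, Bhmt differed by -1.59 in this comparison, and Tdo2 and Abat were the highest at 1.13 and 1.07. After subtraction these were -1.30, 0.20 and 0.58. Between carcinoma and cirrhotic liver Tat stood at 1.41, Tdo2 at -1.0 and Sds at -1.12 (1.14, -0.17 and -1.76 after subtraction). Between carcinoma and control liver Agxt stood at 1.15, Abat at 0.71 and Kynu at -1.31.

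The 11 measured of 17 genes of arginine, ornithine and polyamine use had medians of 0.23, 0.32 and -0.18 in carcinoma against cirrhotic, cirrhotic against control and carcinoma against control liver. Oaz1, which restrains polyamine synthesis, was the highest in the first comparison at 1.48, with Gamt at 0.49, Gatm at -1.17 and Nos2 at -1.3. In the second Nos2 stood at 1.44, Gatm at 0.99 and Nos1 at -1.09. In the third Odc1, the first enzyme of polyamine synthesis, stood at 1.01, Oaz1 at 0.77, Amd1 at -0.72 and Gamt at -1.32. In both lists 0 genes passed the adjusted threshold.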
